A study of Homo sapiens with 14 samples.

Results

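RPMI8226, a human multiple myeloma (MM) cell line, had 920 clusters of distal open chromatin regions on chromosomes 1 to 22. A cluster is a run of at least 5 distal peaks in which neighbouring peaks lay no more than 12500 bp apart. A peak is a stretch of the genome in which the authors called open chromatin, and it was distal when it did not overlap the 2500 bp on either side of any transcription start site annotated in GENCODE release 44. The 920 clusters were chosen by the positions of the peaks called in RPMI8226, and they held 5744 of the 49360 RPMI8226 distal peaks on these chromosomes and of the 79969 RPMI8226 reference peaks in all. Number of peaks, spacing and summed width were therefore used to select and rank the clusters and are given here as a description, with no test. Overlap with the second cell line and the sequence under a peak were not part of that selection. Place relative to genes entered it through the removal of peaks at start sites. The number of libraries entered it through the authors' minimum of 3 libraries per peak.

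Chromatin accessibility was profiled by Omni-ATAC, in which a transposase cuts and tags open DNA, in RPMI8226 and in MM.1S, another human MM line. Cells of each line were grown alone (MONO), in the upper transwell over HS5 bone marrow stromal cells (TSW), or in the lower chamber in contact with HS5 cells (CO), and MM cells were separated from stromal cells by sorting before the assay. The study reports that a small share of HS5 cells remained among the MM cells sorted from the lower chamber. RPMI8226 had 1 MONO, 2 TSW and 2 CO libraries, and MM.1S had 3 libraries of each condition. The deposited data were 1 list of reference peaks per line, with all 3 culture conditions pooled, so that no difference between MONO, TSW and CO could be analysed in the clusters. With 1 MONO library and a minimum of 3, every RPMI8226 peak needed at least 2 TSW or CO libraries. An MM.1S peak could rest on its 3 MONO libraries alone. In the overlap of the lists, cell line and mix of culture conditions therefore cannot be told apart. The lists carried no read counts, so the number of reads behind a peak is unknown. Read totals of the libraries are given in the study's supplement and were not used here. Each peak had a whole number from 3 to 5 in RPMI8226 and from 3 to 9 in MM.1S, which was read as the number of libraries in which the peak was called. A cell line has 1 list each, each line is a single established culture, and the intervals below are 95% Wilson intervals that cover counting error over peaks only.

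Distal open regions include enhancers, stretches of DNA that bind transcription factors and raise the transcription of genes on the same chromosome, sometimes over long distances. Enhancers that lie close together are often stitched into one unit, and the densest units are found near genes that define a cell type and near oncogenes, among them MYC in MM. RPMI8226 carries a translocation that places MAF, a basic leucine zipper factor related to AP-1, under an immunoglobulin enhancer. The peak lists do not show whether MM.1S also carries a MAF translocation, so MAF activation is not taken here as a difference between the lines. Accessibility alone does not show that a region is an active enhancer or which gene it acts on, and a nearest gene is used here as an address. RPMI8226 had a peak at the promoter of 15 of 15 plasma cell marker genes, among them SDC1, CD38, TNFRSF17 and IRF4, and at 8 of 16 stromal cell marker genes, against a background of 73% of 19103 protein-coding genes (MM.1S 77.9%). FAP, LUM, POSTN and THY1 were among the stromal genes with no promoter peak in RPMI8226, while COL1A1, COL1A2, FN1 and PDGFRB had one. The part of remaining HS5 cells in the peaks of either list was not tested.

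The sequences that recur below are those of AP-1 sites, written TGANTCA, since members seen in RPMI8226 alone and members also open in MM.1S differed most, in percentage points and among the motifs searched, in how often this site lay under them. Motifs were searched on both strands in the 200 bp centred on the middle of each peak, a window that reaches beyond peaks narrower than 200 bp. The cluster upstream of MAP3K1 held more peaks with an AP-1 site than any other, 7 of 15, and the 31 bases around the first site of each are shown on the plus strand of hg38, numbered by peak along the cluster, with the site in capitals.
MAP3K1 peak 4, chr5:56648676-56648706: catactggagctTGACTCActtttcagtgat
MAP3K1 peak 5, chr5:56659116-56659146: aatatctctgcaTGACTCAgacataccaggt
MAP3K1 peak 6, chr5:56665325-56665355: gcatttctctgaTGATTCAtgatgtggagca
MAP3K1 peak 8, chr5:56676627-56676657: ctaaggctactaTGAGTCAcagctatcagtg
MAP3K1 peak 10, chr5:56683464-56683494: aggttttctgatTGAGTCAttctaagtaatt
MAP3K1 peak 11, chr5:56685841-56685871: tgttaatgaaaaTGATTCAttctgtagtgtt
MAP3K1 peak 15, chr5:56711332-56711362: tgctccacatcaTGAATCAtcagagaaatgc

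The windows of MAP3K1 peaks 6 and 15 were reverse complements of each other, and their 31 bases occurred 4 times in chromosomes 1 to 22, X and Y, or 931 times with up to 3 mismatches. The other 5 windows occurred once, also with up to 3 mismatches. Peaks 5, 6 and 11 were overlapped by an MM.1S peak, and peaks 4, 8, 10 and 15 were not.

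Among the clusters with no counterpart in MM.1S, the one next to NEBL, which encodes the actin-binding protein nebulette, held the most AP-1 sites, in 5 of 7 peaks. The cluster nearest to MAF had a site in 2 of 6 peaks. Both sets are shown in the same way. Each of these 7 windows occurred once as an exact match, but with up to 3 mismatches the NEBL windows of peaks 2, 4, 6 and 7 matched 5046, 3297, 19163 and 17 places, so that most of the NEBL sites lay in repeated sequence. The NEBL window of peak 3 and both MAF windows still matched 1 place.
NEBL peak 2, chr10:21315554-21315584: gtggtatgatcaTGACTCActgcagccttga
NEBL peak 3, chr10:21327758-21327788: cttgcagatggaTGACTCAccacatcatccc
NEBL peak 4, chr10:21330183-21330213: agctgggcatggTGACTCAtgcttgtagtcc
NEBL peak 6, chr10:21342682-21342712: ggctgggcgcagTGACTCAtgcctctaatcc
NEBL peak 7, chr10:21347198-21347228: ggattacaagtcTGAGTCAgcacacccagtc
MAF peak 3, chr16:79845886-79845916: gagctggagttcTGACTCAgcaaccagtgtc
MAF peak 5, chr16:79856807-79856837: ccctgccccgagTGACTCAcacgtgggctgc

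Longer windows show how sites were arranged within single peaks. Each was chosen as the peak outside exons with the most sites in its cluster, the wider peak in a tie. An AP-1 site was present in 1 of 22 TRIO and 4 of 18 CDK6 peaks, and an E-box in 6 of 8 SDC1 peaks. The central 200 bp of the first TRIO peak and of the eighth CDK6 peak, neither of them overlapped in MM.1S, are given with AP-1 sites in capitals, and those of the eighth SDC1 peak, which was overlapped in MM.1S, with E2A-type E-boxes (CAGGTG or its reverse complement) in capitals. All 3 windows lay in introns of the gene named.
TRIO peak 1, chr5:14190428-14190627: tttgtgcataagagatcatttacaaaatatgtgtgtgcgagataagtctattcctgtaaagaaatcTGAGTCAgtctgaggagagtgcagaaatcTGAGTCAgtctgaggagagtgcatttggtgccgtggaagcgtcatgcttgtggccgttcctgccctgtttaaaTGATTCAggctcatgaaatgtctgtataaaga
CDK6 peak 8, chr7:92766751-92766950: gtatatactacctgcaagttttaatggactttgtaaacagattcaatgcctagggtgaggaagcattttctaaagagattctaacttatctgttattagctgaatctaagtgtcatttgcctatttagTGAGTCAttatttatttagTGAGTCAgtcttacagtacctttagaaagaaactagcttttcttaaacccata
SDC1 peak 8, chr2:20214380-20214579: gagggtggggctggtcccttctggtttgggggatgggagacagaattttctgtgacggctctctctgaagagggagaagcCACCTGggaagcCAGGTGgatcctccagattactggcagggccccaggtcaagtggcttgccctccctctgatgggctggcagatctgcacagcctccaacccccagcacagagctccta

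The TRIO window held 3 AP-1 sites, and a stretch of 29 bases that includes a site stood in it more than once. The CDK6 window held 2 sites, with a repeated stretch of 14 bases. In the SDC1 window the E-boxes stood in opposite orientations.

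Clusters were mostly small. The median was 6 peaks (5 to 22) over a span of 25.7 kb (2.98 to 113 kb), with a summed peak width of 2167 bp (958 to 7905 bp) that covered a median of 8.64% of the span. There were 447 clusters of 5 peaks and 63 of at least 10. Immediately outside the threshold lay 884 groups of 4 peaks. In these groups 51.6% of 3536 peaks were overlapped by an MM.1S peak and the median peak was 330 bp wide, compared with 50.4% of 2235 peaks and 334 bp in the groups of 5. The smallest summed width among the clusters of 5 was 958 bp, in a cluster nearest to PRPF18. The same rule applied to MM.1S gave 442 clusters with 2722 of its 43098 distal peaks.

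**Figure D1:**
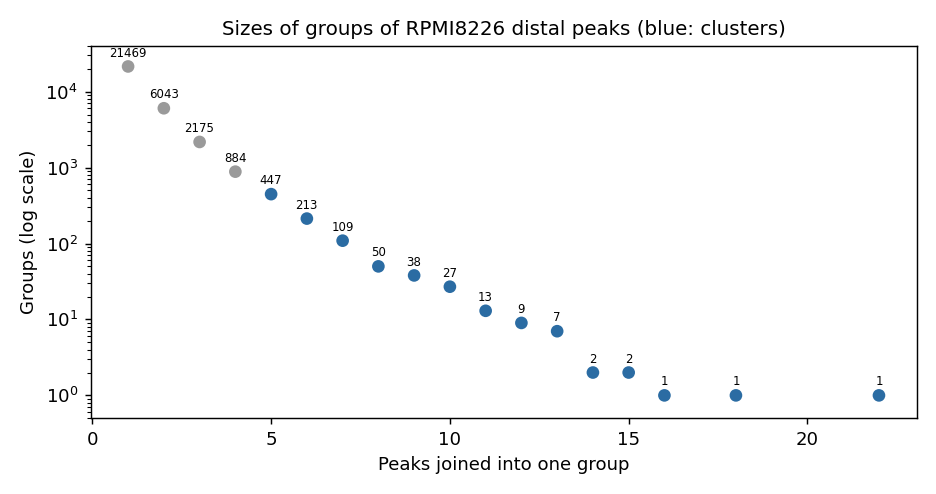
Groups of RPMI8226 distal peaks by the number of peaks joined (horizontal axis) and the number of such groups (vertical axis, log scale), with groups kept as clusters in blue and smaller groups in grey. The number of groups fell from 21469 single peaks to 447 groups of 5, and 1 group had 22 peaks.

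The 25 clusters with the most peaks held 335 peaks, of which 189 (56.4%) were overlapped by an MM.1S peak, and the share ranged from 0 to 84.6% between clusters. The background over all RPMI8226 distal peaks was 54.1%. Distances to a gene are given to the outermost start site annotated for it.

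The largest cluster, by number of peaks and by summed width, lay inside TRIO, which encodes a guanine nucleotide exchange factor (chr5:14190105-14264953). It had 22 peaks and 7905 bp of open sequence over 74.8 kb, and 13 of the peaks were called in all 5 libraries. Its peaks were 151 to 847 bp wide and the midpoints of all of them were intronic. Peaks 6, 7, 8 and 22 along the cluster were overlapped by MM.1S peaks, and a run of 13 consecutive peaks between them was not. A second cluster of 5 peaks began closer to the TRIO start site, at 13.2 kb, with 0 peaks overlapped. Together 4 of 27 peaks (14.8%) around TRIO were overlapped, although the TRIO promoter had a peak in both lines. An AP-1 site was present in 1 of the 22 peaks and an E-box in 6, beside 21.1% and 28.3% of all RPMI8226 distal peaks. The E-box count was thus near the background share.

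CDK6, the cyclin D-dependent kinase of the G1 phase, contained the second cluster (chr7:92718075-92830875), which was also the longest at 113 kb. It had 18 peaks with 6217 bp in all, and 11 of them were overlapped by an MM.1S peak. The 4 peaks farthest from the CDK6 start site were all overlapped, and the 2 peaks nearest to it were not. CDK6 was the only gene of the top 3 whose cluster lay within 10 kb of its start site, at 5.7 kb.

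TENT5C, a non-canonical poly(A) polymerase that is recurrently mutated in MM, lay 23.7 kb from a cluster of 16 peaks (chr1:117629707-117677049). In contrast to TRIO, 13 of these 16 peaks were overlapped by MM.1S peaks and 13 were called in all 5 libraries. An E-box was present in 8 of its peaks, the most of any cluster, and an AP-1 site in 1. IER5, an immediate early response gene, was nearest to 15 peaks with a summed width of 7016 bp, second by width, of which 10 were overlapped. Its 3 peaks with an AP-1 site were all among the 5 that were not overlapped. Clusters differed in this respect. Of the peaks with a site, 1 of 4 in the CDK6 cluster and 0 of 2 in the EML4 cluster were not overlapped.

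The cluster of MAP3K1, a kinase at the top of a MAP kinase cascade, lay 104 kb from the start site of that gene (chr5:56638323-56711409), outside protein-coding genes, and 9 of its 15 peaks were overlapped. UGCG, which encodes glucosylceramide synthase, was nearest to 14 peaks with 7 overlapped, and 6 of these peaks had an AP-1 site. MAP3K13 had 14 peaks within the gene with 8 overlapped, and an AP-1 site in 1 of them. AP-1 sites were thus frequent in the MAP3K1 and UGCG clusters and rare in the MAP3K13 cluster.

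**Figure D2:**
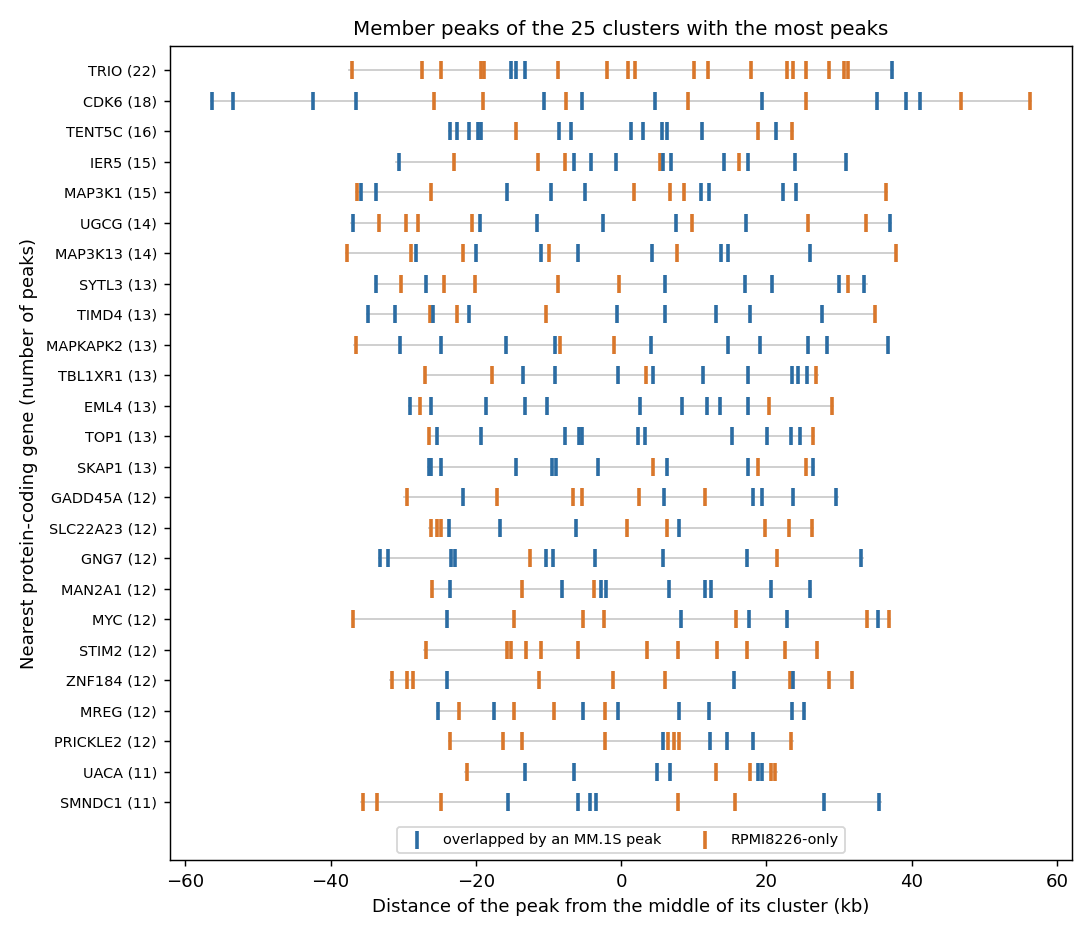
Member peaks of the 25 clusters with the most peaks, placed by distance from the middle of the cluster (kb), with 1 row per cluster named by its nearest protein-coding gene and number of peaks. Blue marks are peaks overlapped by an MM.1S peak and orange marks are RPMI8226-only; the TRIO row is mostly orange with 4 blue marks, the STIM2 row has no blue mark, and the TENT5C row has 13.

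Further down, TIMD4, a phosphatidylserine receptor, was nearest to 13 peaks with 9 overlapped, and its promoter had a peak in RPMI8226 and not in MM.1S. TBL1XR1, a subunit of the nuclear receptor corepressor complex, EML4, a microtubule-associated protein, TOP1, DNA topoisomerase I, and SKAP1, an adaptor of antigen receptor signalling, were each nearest to 13 peaks, and 9, 10, 11 and 10 of these were overlapped. SYTL3, a vesicle trafficking protein, held 13 peaks with 7 overlapped and had no promoter peak in either line. The DNA damage response gene GADD45A lay 15.5 kb from 12 peaks with 6 overlapped, in a cluster that extended over the body of GNG12. Around MYC, which drives growth and is a frequent target of rearrangement in MM, a cluster of 12 peaks contained the start site, and 5 peaks were overlapped.

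By summed width, 9 of the 10 widest clusters were also among the 25 with the most peaks. The exception was ZFP36L2, which encodes a protein that binds AU-rich elements and promotes mRNA decay. Its cluster (chr2:43168740-43213350) had only 8 peaks but 5499 bp of open sequence, and 7 of the peaks were called in all 5 libraries. The widest single member peak of all clusters was the fifth peak here, at 1654 bp (chr2:43193883-43195536), and it was not overlapped by any MM.1S peak.

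Across all clusters, 2935 of 5744 member peaks were overlapped by an MM.1S peak (51.1%, 49.8 to 52.4%), beside 54.1% of all RPMI8226 distal peaks and 54.5% (54 to 55%) of those outside clusters. Member peaks were called in all 5 libraries in 62.7% of cases (61.5 to 64%), beside 58.6% of all distal peaks, and peaks with more library support were overlapped more often. With support held fixed, members called in 5 libraries were overlapped in 62.3% (all distal peaks 66.1%), those called in 4 in 35.2% (39.7%) and those called in 3 in 27.7% (33.8%). The lower share in clusters was thus present at each support number. The differences are a few percentage points, and they rest on 1 list per line.

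Few clusters were wholly private or wholly shared. In 65 clusters (7.07%, 5.58 to 8.91%) no peak was overlapped by an MM.1S peak, in 47 (5.11%, 3.86 to 6.73%) every peak was, and the median share over all clusters was 50%. At least 1 MM.1S peak lay within the span of all but 55 clusters. In contrast, only 198 clusters (21.5%) overlapped a cluster found by the same rule in MM.1S, and these included 37 of the 47 clusters with every peak overlapped. The latter count follows largely from the shared rule, since a run of overlapped peaks tends to form a cluster in MM.1S too. Of the 25 clusters with the most peaks, 18 overlapped an MM.1S cluster, and those of TRIO, CDK6, MAP3K1, SLC22A23, MYC, STIM2 and ZNF184 did not.

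**Figure D3:**
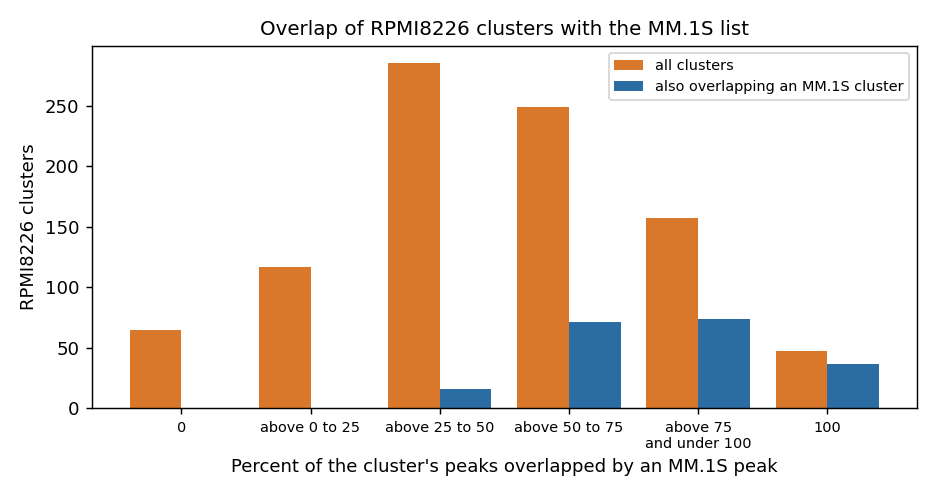
Number of RPMI8226 clusters (vertical axis) by the percent of their peaks overlapped by an MM.1S peak (horizontal axis), for all clusters (orange) and for those that also overlap a cluster of MM.1S (blue). The 2 classes between 25 and 75% held 285 and 249 clusters, and no cluster at or under 25% overlapped an MM.1S cluster.

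The 12 largest clusters with no overlapped peak held 91 peaks, and 10 of them had no MM.1S peak anywhere in their span. The first of these had 12 peaks over 54.3 kb on chromosome 4 (chr4:27474586-27528856), 617 kb from STIM2, a calcium sensor of the endoplasmic reticulum. Its peaks were 174 to 808 bp wide, and 8 of them were called in all 5 libraries. It was followed by clusters nearest to MYLIP, a ubiquitin ligase for the LDL receptor, with 9 peaks, and TENM3, a teneurin, and TPST1, a tyrosylprotein sulfotransferase, with 8 peaks each. The TENM3 cluster was 2042 kb from that gene. Clusters of 7 peaks lay nearest to SHB, TMPRSS5, MGAT4A, NEBL, WRNIP1 and SCHIP1, and clusters of 6 nearest to CSMD3 and KCNAB2. The cluster nearest to the WRNIP1 start site lay in the body of MYLK4. The CSMD3 cluster had all 6 of its peaks called in 5 libraries, whereas SCHIP1 had 2 of 7. Across these 12 clusters 47 of 91 peaks were called in all 5 libraries. The share was 52.3% in members of all clusters with no overlap, beside 48.3% of RPMI8226-only members and 58.6% of all distal peaks.

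Most of the nearest genes had an open promoter. A promoter peak was present in RPMI8226 for 55 of 63 genes nearest to the clusters with no overlapped peak (87.3%, 76.9 to 93.4%) and in MM.1S for 52 of them (82.5%, 71.4 to 90%). For the genes nearest to fully overlapped clusters the counts were 38 and 40 of 47. For all 829 genes nearest to a cluster they were 681 (82.1%) and 705 (85%), beside 73% and 77.9% of all protein-coding genes. Among the 63 genes, NEBL, UNC5C, WDR72, WT1 and ZNF716 had a promoter peak in RPMI8226 and none in MM.1S; these 5 were named after their values were seen. Both lines had a promoter peak at 50 of these 63 genes.

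The largest cluster with every peak overlapped had 10 peaks 82.4 kb from TNRC6C, a protein of microRNA silencing complexes. SDC1, which encodes the plasma cell surface proteoglycan syndecan-1 (CD138), followed with 8 peaks (chr2:20187301-20214780). They extended from within the gene to beyond its end, 5 of them were called in all 5 libraries, none had an AP-1 site, and 6 had an E-box, including the window shown above. Fully overlapped clusters of 7 peaks lay nearest to ID3, an inhibitor of E proteins, to OGDH, a subunit of the oxoglutarate dehydrogenase complex, to FNIP2 and to HCG22, and clusters of 6 nearest to CCDC88C and SPSB1. All 8 overlapped an MM.1S cluster, which the shared rule favours.

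AP-1 factors are dimers of JUN, FOS and related proteins that respond to growth and stress signals. An AP-1 site was present in 1257 of 5744 members (21.9%, 20.8 to 23%), beside 21.1% of all distal peaks. Within clusters the share was 17.6% (16.3 to 19.1%) in members overlapped by an MM.1S peak and 26.3% (24.7 to 28%) in RPMI8226-only members. Distal peaks outside clusters showed the same split, with 16.4% and 26.5%. The gap between RPMI8226-only and overlapped peaks was thus wider than that between members and other distal peaks. Of the sites, 78% in RPMI8226-only members and 75.8% in overlapped members were TGACTCA or its reverse complement, and the remainder were TGAATCA or its reverse complement. RPMI8226-only members were also narrower (median 287 against 381 bp) and were called in all 5 libraries less often (48.3% against 76.5%). Peaks called in 4 libraries made up 29.9% of RPMI8226-only and 15.5% of overlapped members. For peaks called in 3, 4 and 5 libraries the AP-1 share was 21.8, 25.8 and 20.5% in members. Among all distal peaks it was 20.1, 26.1 and 19.5%. The part of width and support in the AP-1 shares was not tested.

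Exact repeats were few among these sites. The 31 bases around an AP-1 site occurred once in chromosomes 1 to 22, X and Y for 1329 of 1398 sites in members (95.1%), with 94.9% in overlapped and 95.2% in RPMI8226-only members. With sites of this kind alone, 16.9% of overlapped and 25% of RPMI8226-only members had an AP-1 site. A word of the Alu repeat consensus, TGTAATCCC on either strand, lay in the central window of 2.11% of members and 1.91% of all distal peaks. No cluster had it in as many as 1 in 2 of its peaks. Neither search finds diverged repeat copies, which were present at NEBL and MAP3K1, and their share of the AP-1 sites in all members was not measured.

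An AP-1 site was found in at least 1 peak of 706 clusters (76.7%), and 139 clusters had it in 3 or more peaks. Such counts grow with the number of peaks in a cluster. As 21.1% of all distal peaks had a site, they are not read as a trait of clusters. In 10 clusters at least 5 peaks had an AP-1 site. Besides MAP3K1, UGCG and NEBL, these lay nearest to PTPRS, RAP2B, EDN2, TRIB1, COG2, ZNF438 and CXCL6, which were named after their values were seen. CXCL6, a neutrophil-attracting chemokine, had the site in 5 of 6 peaks, and its start site lay within the cluster. RAP2B, a small GTPase, had it in 6 of 10 peaks, 5 of which were RPMI8226-only.

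**Figure D4:**
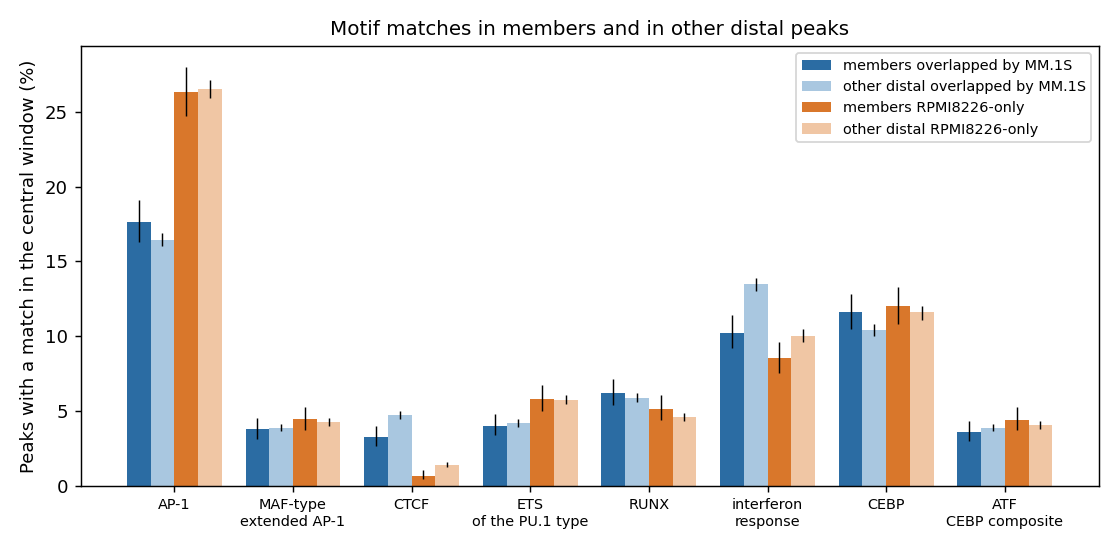
Percent of peaks with a motif match in the central 200 bp (vertical axis) for 8 motifs, in members overlapped by an MM.1S peak (dark blue), other distal peaks overlapped by one (light blue), RPMI8226-only members (dark orange) and other RPMI8226-only distal peaks (light orange), with 95% Wilson intervals as lines. AP-1 is higher in both orange groups, at 26.3 and 26.5%, while CTCF is lower in members than in other distal peaks of either kind.

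The other motifs were searched in the same windows. CTCF, which marks insulators and loop anchors (AGNNGGCGC), was found in 2% of members (1.67 to 2.4%), beside 3.06% of all distal peaks. It was in 3.27% of overlapped members and in 0.676% of RPMI8226-only members, where the distal peaks outside clusters had 4.7% and 1.4%. The interferon response element bound by IRF factors (GAAANNGAA) was in 9.4% of members (8.67 to 10.2%), beside 11.6% of all distal peaks. In contrast, the E-box of E2A-type factors (CAGGTG) was in 30.4% (29.3 to 31.6%), beside 28.3%. Shares of CTCF and interferon response matches were thus lower, and that of E-boxes higher, in members than in distal peaks outside clusters (3.2%, 11.9% and 28%) by more than the counting intervals.

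For the remaining motifs members and all distal peaks were close. The MAF-type site (GCTGANTCA), which contains an AP-1 site, was in 4.11% of members and 4.06% of all distal peaks, and in 4.45% of RPMI8226-only members (3.75 to 5.28%) against 3.78% of overlapped members (3.15 to 4.53%). The ETS site of the PU.1 type (GAGGAAGT) was in 4.89% and 4.9%, RUNX (TGTGGTTT) in 5.69% and 5.33%, CEBP (TTGCNNAA) in 11.8% and 11%, and the ATF and CEBP composite site (TGATGNAA) in 4% and 3.96%. NF-kB sites (GGANNTTCC) were in 2.8% and 2.73%, STAT3 sites (TTCCNGGAA) in 0.575% and 0.648%, and MEF2 sites (CTATTTATA) in 0.366% and 0.336%. A match says that the letters are present, not that a factor was bound.

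Clusters nearest to genes of plasma cell biology were found for some lists and were few for others. By background, 829 of 19103 protein-coding genes (4.34%) were nearest to a cluster, and 8.58% had a cluster within 100 kb of the start site. Of 15 plasma cell factors, PRDM1, POU2AF1 and RUNX1 were nearest to a cluster. PRDM1, which encodes the repressor BLIMP1 that drives plasma cell differentiation, had clusters of 5 peaks on both sides, at 129 and 183 kb, with 4 peaks overlapped in each. The PRDM1 cluster at 129 kb extended over the body of ATG5. POU2AF1, a coactivator of octamer factors, had 7 peaks with 4 overlapped. IRF4 was within 100 kb of a cluster whose nearest gene was DUSP22.

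Among 12 genes of the B cell programme, PAX5, BACH2 and ID3 were nearest to clusters, and CIITA had one within 100 kb. The PAX5 cluster (chr9:36903466-36929124) lay in the gene, with 3 of 5 peaks overlapped and an AP-1 site in 4 of 5. Surface and adhesion genes had 5 of 13 nearest to a cluster. These were ITGA4, the alpha 4 integrin subunit, with 5 of 7 peaks overlapped, SDC1, CD38 with 4 of 5, the chemokine receptor CXCR4 with 2 of 5, and the costimulatory receptor CD28 with 7 of 9. SLAMF7 had a cluster within 100 kb. All 5 peaks of the CD38 cluster were called in all 5 libraries.

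From the MAF programme, 2 of 11 genes were nearest to a cluster, MAF itself and the chemokine receptor gene CCR1. The MAF cluster (chr16:79843560-79860671) lay 243 kb from the MAF start site. It had 6 peaks over 17.1 kb, 3 of them called in all 5 libraries, and 0 were overlapped by an MM.1S peak, while the MAF promoter had a peak in both lines. CCR1 had 5 peaks with 2 overlapped. CDK6 and PPP3CA were the 2 of 17 stromal response genes named by the study that were nearest to a cluster, and HIF1A also had one within 100 kb of its start site. PPP3CA, a calcineurin subunit, had 3 of 7 peaks overlapped. Of 11 AP-1 subunit genes only JUND was nearest to a cluster, with 3 of 5 peaks overlapped, while BATF3 and ATF3 had a cluster within 100 kb. Of 12 NF-kB genes only the inhibitor TNFAIP3 was, and all 6 of its peaks were overlapped. These lists and the clusters were chosen with results of these data known, and the counts are descriptions.

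Several genes were nearest to more than 1 cluster, 76 genes to at least 2 and 14 to at least 3; those named here were chosen after their values were seen. TBL1XR1 had 4 clusters with 32 peaks. In the cluster nearest to its start site, at 70.7 kb, 5 of 5 peaks were overlapped, in the next, at 79.5 kb, 9 of 13, at 342 kb 2 of 9, and at 406 kb 0 of 5. HES1, a repressor downstream of Notch, had 3 clusters with 23 peaks of which 9 were overlapped. The cluster at 31.4 kb had 6 of 9 peaks overlapped, that at 187 kb 0 of 6 and that at 242 kb 3 of 8. The overlapped share thus ran from 0 to 100% among the clusters nearest to TBL1XR1.

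Position relative to genes was mixed. Clusters overlapped the body of a protein-coding gene in 466 cases (50.7%), and 74 contained a protein-coding start site. The median distance to the nearest protein-coding start was 37.8 kb, 530 clusters lay within 50 kb, and 223 lay over 100 kb away. By their midpoints, 40.9% of member peaks were in introns of protein-coding genes, 2.26% in an exon and 56.9% outside protein-coding genes, compared with 41.5%, 3.81% and 54.6% of all distal peaks. Members of clusters with no overlap in MM.1S lay outside protein-coding genes in 70.9%, and members of fully overlapped clusters in 60.9%.

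The share of distal peaks that fell into clusters ranged from 8.07% on chromosome 16 to 14.2% on chromosome 15, and chromosome 1 had the most clusters, 121. Distal peak density ranged from 12.4 per Mb on chromosome 13 to 23.7 per Mb on chromosome 1. On chromosome 13, 33% of 100 members were overlapped by an MM.1S peak, beside 45.2% of its distal peaks. On chromosome 14 the order was the opposite, with 65.7% of 108 members beside 47.4%. Both chromosomes were picked after their values were seen, and they held 17 and 19 clusters. Gaps like that of chromosome 13 were found on chromosomes 4 (43.5% beside 54.9%), 11 (47.7% beside 58.4%) and 22 (45% beside 59.1%). Members were slightly above distal peaks on chromosomes 6, 10 and 21. A few clusters lay beside centromeric or unresolved sequence, such as 8 peaks nearest to SHCBP1 on chromosome 16 with a median GC content of 36.2% and 6 peaks on chromosome 21 that were 5398 kb from TPTE. Without peaks near assembly gaps, 874 clusters remained by the same rule.

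**Figure D5:**
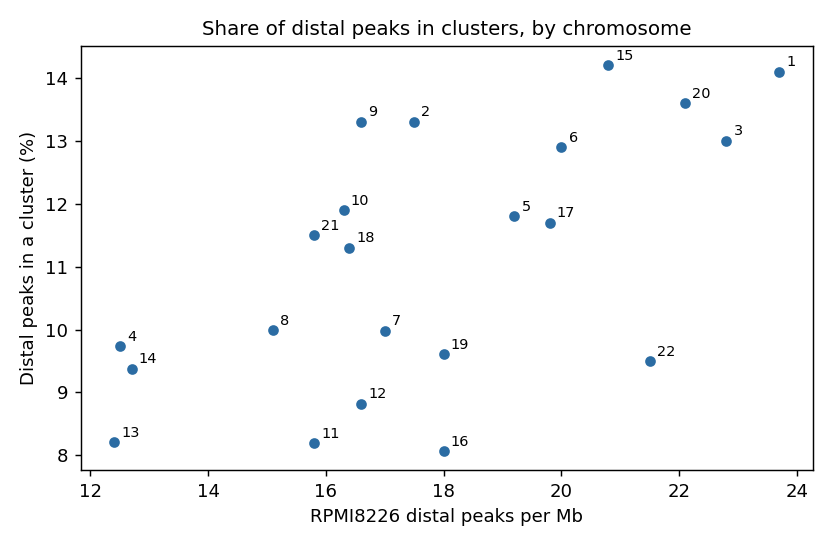
Percent of RPMI8226 distal peaks in a cluster (vertical axis) against the number of distal peaks per Mb (horizontal axis), with 1 point per chromosome labelled by its number. Chromosomes 1 and 15 lie at 14.1 and 14.2%, while chromosome 16, with 18 peaks per Mb, is lowest at 8.07%.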

How the data were processed

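Omni-ATAC peak lists of RPMI8226 (5 libraries) and MM.1S (9 libraries) were used, with groups taken from the sample titles. By the study's methods and the submitters' processing notes, the authors aligned reads to hg38 with Bowtie2, called peaks in each library with MACS3, and kept peaks present in at least 3 libraries. The deposited lists give the coordinates of each peak and 1 further integer without a header, whose unit is other than reads and which was read as the number of libraries. No normalization applies, no read count per peak is given, and the depth behind a peak is unknown; library read totals in the study's supplement were not used.

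Starts were read as counted from 0 and are printed plus 1. GENCODE release 44 supplied the start sites (the study worked with RefSeq). Distal peaks on chromosomes 1 to 22 lay outside 2500 bp on either side of any start site. Neighbours with a gap of at most 12500 bp were joined and groups of at least 5 peaks were kept. A member was overlapped when at least 1 bp was covered by a peak of the MM.1S list, promoter peaks included, and RPMI8226-only otherwise. Motifs were searched on both strands in the 200 bp centred on the middle of each peak, whatever its width. The clustering step was tested on simulated data. The motif search was checked on a few short sequences, and the check of the overlap step could not have detected missed overlaps. Python 3.11.15, pandas 2.3.3, numpy 2.4.6 and pysam 0.24.0 were used.

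Named clusters were the 25 with the most peaks, the 10 widest in sum, the 12 largest with no peak overlapped, the 8 largest with every peak overlapped, those of 5 peaks at the edge of the rule, and clusters nearest to genes of 7 lists. The clusters and the lists were chosen with earlier results of these data known. No test was run, since each line has 1 list and culture conditions are pooled in it. Alternatives for gap, size, promoter window, start sites, support, width and overlap were computed.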

Additional observations from a re-analysis of the deposited data

How the results depend on the processing

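Of 65 values computed under alternatives, 38 stayed within the counting interval of the reported share or within 1.5 times the reported count, and 27 did not. The number of clusters (920) and of member peaks (5744) depends on the rule: 144 and 786 with a gap of at most 5000 bp, 2137 and 15678 with 25000 bp, 151 and 1468 with at least 8 peaks, 1475 and 9653 with start sites of protein-coding transcripts only, 205 and 1210 with only peaks called in all 5 libraries, and 114 and 634 with only wide peaks (no narrower than the median distal peak). The share of members overlapped by an MM.1S peak (51.1%) became 52.6% with at least 8 peaks, 54.1% with protein-coding start sites only, 63.5% with only peaks called in all 5 libraries, 63.9% with only wide peaks, and 31.5% against MM.1S peaks called in all 9 libraries. Among all distal peaks called in all 5 libraries, 66.1% were overlapped, so the 63.5% lay below its background. No matching share over all distal peaks was computed for wide peaks, protein-coding start sites or MM.1S peaks called in all 9 libraries. The share of clusters with no overlapped peak (7.07%) became 4.12% with a gap of 25000 bp, 2.65% with at least 8 peaks, 5.08% with protein-coding start sites, 1.95% with peaks called in all 5 libraries, 1.75% with wide peaks, and 18.3% against MM.1S peaks called in all 9 libraries. The share called in all 5 libraries (62.7%) became 59.7% with a gap of 5000 bp and 83.9% with wide peaks, and it is fixed by construction when only such peaks are kept. The AP-1 share (21.9%) became 20% with a gap of 5000 bp and 19.3% with peaks called in all 5 libraries. Among all distal peaks called in all 5 libraries it was 19.5%. The cause of these changes was not tested.

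Alternatives added after seeing the data left out peaks within 1 Mb of an undetermined stretch of at least 50 kb, which gave 874 clusters and 5445 members, of which 50.9% were overlapped, or counted AP-1 sites only where their window occurs once as an exact match (20.9%) or only in members without the Alu word (21.4%). The counts without repeat-rich peaks were not run, since the genome used here carries no repeat marking. No paired analysis was possible because the lists hold no values per library, and for the same reason no replicate could be left out. Depth limits which peaks were called in each line, and MM.1S needed 3 of 9 libraries where RPMI8226 needed 3 of 5.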
